A study of Mus musculus with 9 samples.

Results

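The nuclear genes of the 5 oxidative phosphorylation complexes were followed in peritoneal exudate cells of mice that lack Apoe. Members were the protein-coding rows of the deposited table whose name starts with Nduf (complex I), Uqcr (complex III), Cox4 to Cox8 (complex IV) or Atp5 (complex V), with Sdha, Sdhb, Sdhc and Sdhd for complex II. The rule found 91 genes among the 41096 in the table: 45 in complex I, 4 in complex II, 8 in complex III, 17 in complex IV and 17 in complex V. The 45 of complex I include 7 assembly factors (Ndufaf1 to Ndufaf7), which build the complex without staying in it. Every animal carried APOE-/- and ate a western diet for 8 weeks. The 5 control samples came from mice injected with citrate buffer and the 4 diabetic samples from mice given streptozotocin, which destroys pancreatic beta cells, at 40 mg/kg on 5 consecutive days from 8 weeks of age. Thioglycollate (1.5 mL at 3%) was injected into the peritoneum 3 days before the rinse to recruit leukocytes. The labels name the cells peritoneal macrophages without describing a sort, and give no number of mice per sample. The p-values therefore speak for the spread among these samples, which may be technical in part.

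Oxidative phosphorylation makes most ATP in resting cells. Complexes I (NADH dehydrogenase) and II (succinate dehydrogenase) pass electrons to ubiquinone, complex III (cytochrome bc1) passes them to cytochrome c, and complex IV (cytochrome c oxidase) to oxygen. Complexes I, III and IV pump protons across the inner mitochondrial membrane, and complex V (ATP synthase) lets them flow back to drive ATP synthesis. In macrophages, inflammatory activation is known for a shift from this pathway towards glycolysis, while alternative activation relies on it. The subunits that the mitochondrial genome encodes were not analysed here. What follows is the whole of complex II and the nuclear subunits of complexes I, III, IV and V that the naming rule catches. It misses some, such as Cyc1 (cytochrome c1 of complex III) and Usmg5 (complex V), which are counted with the other lists.

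The libraries held 14156421 to 16169060 reads in genes. Of 11193 genes tested by limma, 533 changed, 300 higher and 233 lower in diabetic samples (255 and 303 when the values were rescaled to TPM). The macrophage genes Adgre1, Csf1r and Cd68 averaged 284 ± 23.0, 285 ± 45.5 and 1109 ± 212 FPKM in control and 246 ± 52.0, 230 ± 52.0 and 1052 ± 278 FPKM in diabetic samples, while the row of Itgam stood at 0.115 ± 0.0750 and 0.110 ± 0.0247 FPKM. Of 6 tested macrophage markers, 1 passed, and it was lower. That gene, Mrc1, had 52.6 ± 12.4 FPKM in control and 24.5 ± 11.1 FPKM in diabetic samples (log2 fold change -1.13, limma adjusted p = 0.033). Throughout, values after ± are SDs over the 5 control or the 4 diabetic samples. T cell markers moved with the groups. The summed FPKM of 11 T cell markers ran from 120 to 172 in control and from 209 to 606 in diabetic samples, and 10 of the 11 passed the test, all higher. Values are in FPKM, fragments scaled by gene length and by a size factor for each library. Levels of different genes can be compared only as far as the deposited gene lengths hold. In bulk samples, fewer cells of a type and less RNA per cell cannot be told apart.

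The complexes were expressed at high levels with a wide range among subunits. Of 87 members that reached an FPKM of 1 in at least 4 samples, 62.1% had a mean of at least 50 FPKM against 11.3% of all tested genes. Cox6a1, a subunit of cytochrome c oxidase in most tissues, was the highest of all 91 with a mean of 508 FPKM over the 9 samples. Cox6b1 (496 FPKM) and Cox4i1 (441 FPKM) followed. Within-group SDs of these 3 genes ran from 41.5 to 90.0 FPKM, so Cox6a1 and Cox6b1 did not differ in level beyond their spread. The highest of complex V was Atp5l at 341 FPKM, the subunit g of the membrane part. The highest of complex III was Uqcrh, the hinge protein next to cytochrome c1, at 212 FPKM, and the highest of complex I was Ndufa2 at 210 FPKM. Sdhd, a membrane anchor of complex II, had 107 FPKM and Sdhc, the other anchor, 46.2 FPKM. These rankings hold for FPKM over the deposited gene lengths, which exceed the transcript lengths of some members, as given below.

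**Figure D1:**
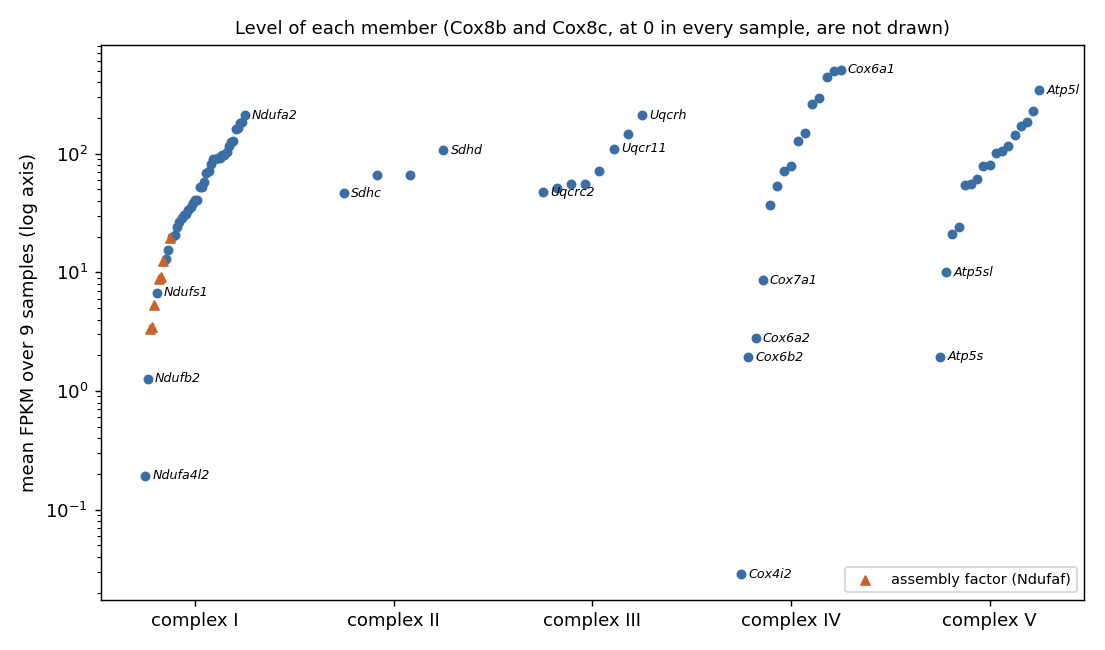
Mean FPKM over the 9 samples (log axis) for each member, by complex, with Ndufaf assembly factors as triangles. Cox6a1 is the highest at 508 FPKM, and Ndufa4l2 lies lowest among those of complex I at 0.193 FPKM.

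The cells used the general isoform wherever complex IV has a second, tissue-restricted one. Cox6a1 exceeded Cox6a2, the heart and muscle form, by 122-fold to 447-fold in single samples. Cox6b1 exceeded Cox6b2, the testis form, by 196-fold to 407-fold. The smallest gap was between Cox7a2 (148 FPKM) and Cox7a1, the heart and muscle form (8.62 FPKM), at 12.9-fold to 48.2-fold. Cox4i2, the isoform of lung and of oxygen sensing, had 3 reads over all 9 libraries, and Cox8b and Cox8c had 0. Ndufa4l2, a hypoxia-induced relative of Ndufa4, had 26 reads in all, at most 0.840 FPKM, against 103 FPKM for Ndufa4. Ndufa4 is grouped with complex I by its name, although it is now placed in complex IV. These 4 genes (Cox4i2, Cox8b, Cox8c and Ndufa4l2) were the members under the filter.

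Levels, high or low, need the deposited gene length beside them. Ndufs1, the largest core subunit of complex I, had 6.71 FPKM from 666 to 869 reads per sample over a deposited length of 8067 bases, whereas its longest coding transcript in GENCODE has 2661 bases. Ndufb7 was given 4522 bases against 623. Among abundant members, Cox4i1 was given 1497 bases against 765 and Cox6a1 702 against 571. Atp5b was given 4237 bases against 1916 and Atp5l 511 against 544. The order of Cox6a1 and Cox4i1, and of Atp5l and Atp5b, thus rests on the deposited lengths. A longer length lowers FPKM equally in every sample, so it moves the order of levels and not the ratio of FPKM between groups. Fold changes of log2(FPKM + 1), used below, do shrink where it leaves FPKM low, as for Ndufb2 (1.27 FPKM over 5628 bases). The assembly factors were low, from 3.34 FPKM for Ndufaf4 to 19.6 FPKM for Ndufaf3, with a median of 8.75 FPKM against 58.0 FPKM for the accessory subunits of complex I.

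Of the 87 tested members, 1 changed between the groups (1.15%, against 4.76% of all tested genes). Uqcr11 was lower (2.08% of all tested genes were), and 0 members were higher (2.68% of all tested genes were). The count depended on the scaling. With TPM 7 members changed: Ndufs4 was higher, and Ndufb6, Ndufs6, Uqcr11, Uqcrq, Cox8a and Atp5j were lower. Of all 11193 tested genes, 255 rose and 303 fell with TPM. At an unadjusted limma p below 0.05 stood 24 members (27.6%, against 22.4% of all tested genes). Of these, 17 were lower (19.5%, against 11.3% of all tested genes) and 7 higher (8.05%, against 11.1%). The count of 17 was 11 without control 2, 11 without control 4, 10 without diabetic 3 and 9 without diabetic 4, beside 10.4%, 10.6%, 13.7% and 8.64% of all genes in the same fits. It was 13 to 21 without any other single sample, and 25 with TPM, beside 12.8% of all genes. Negative log2 fold changes were found for 56 members (64.4%, against 52.3% of all tested genes), and the median was -0.077 against -0.013 over all tested genes. Groups did not overlap for 6 members that were lower (6.90%, against 4.6%) and 2 that were higher (2.30%, against 4.82%), together 9.20% against 9.42%. Fold changes compare log2(FPKM + 1), so those of genes with low FPKM come out too small.

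**Figure D2:**
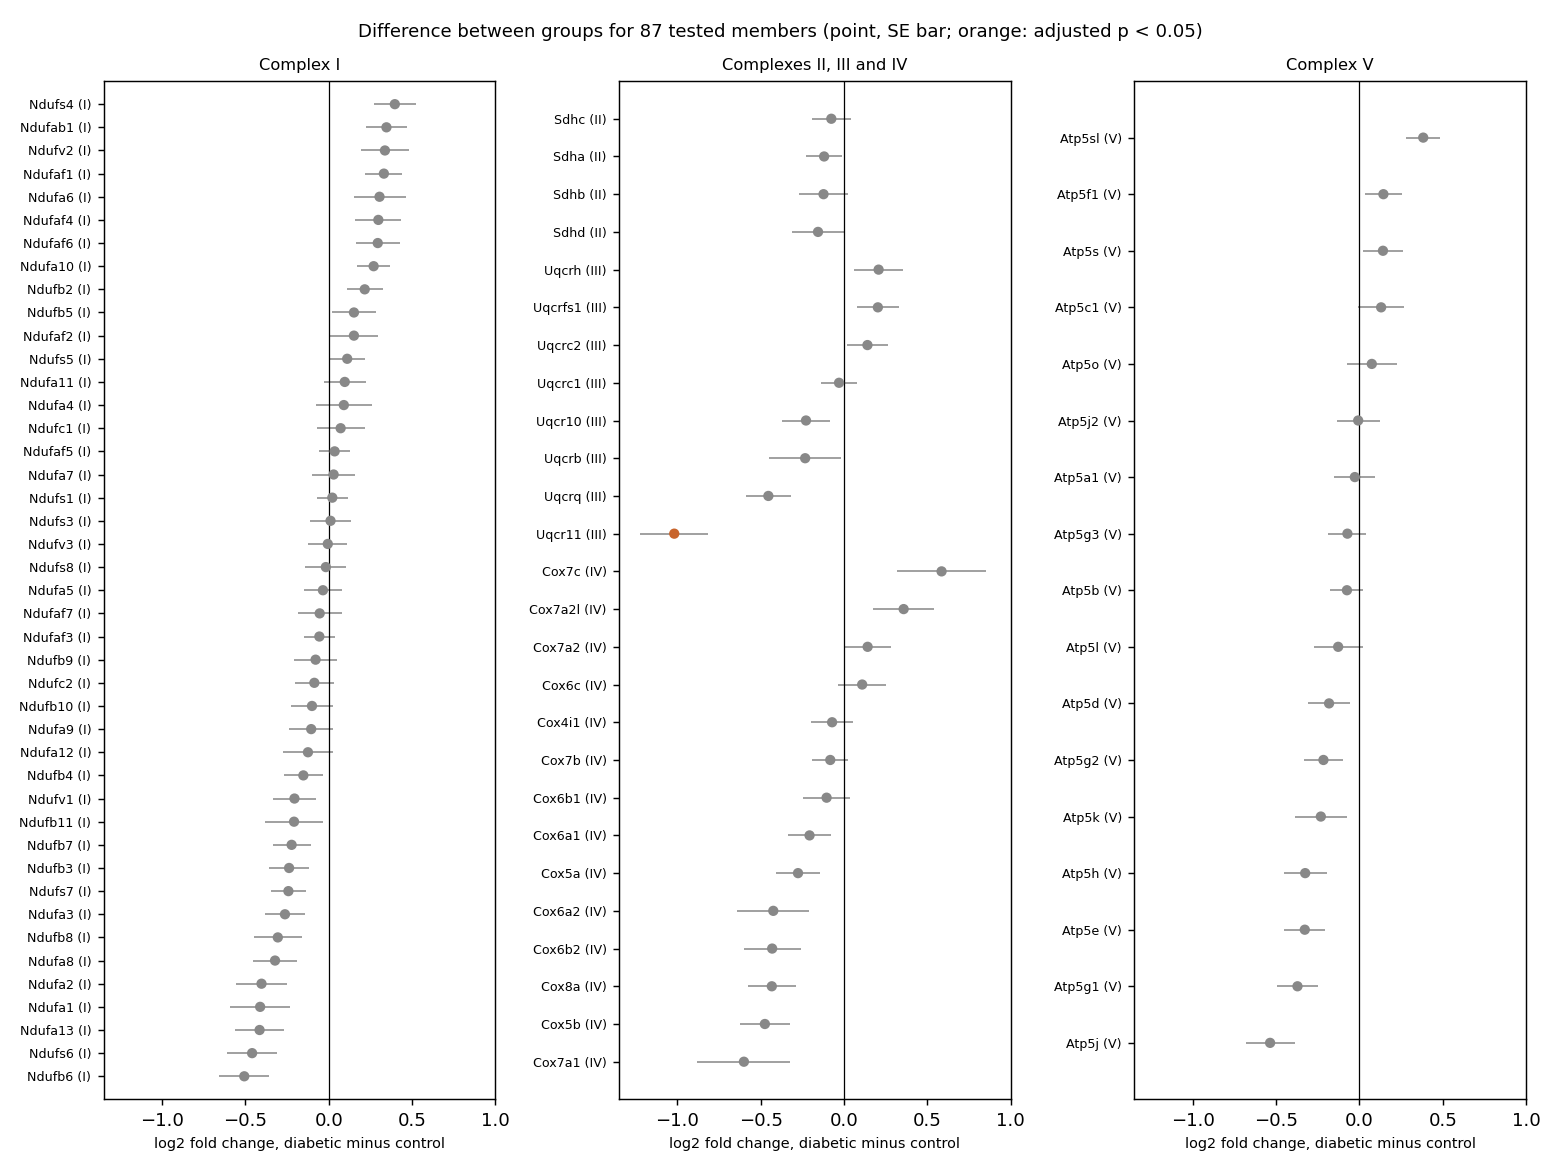
Log2 fold change (diabetic minus control, horizontal axis) with its standard error for the tested members, ordered within each complex, with 1 that is not reported here left out. Uqcr11 at -1.02 is the orange point, and the others drawn lie between -0.60 and 0.58.

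Uqcr11 encodes the smallest subunit of complex III, a single-pass membrane protein next to the Rieske protein (chromosome 10, 83809605 to 83813438, as the table gives it). Control samples 1 to 5 had 109, 181, 154, 148 and 118 FPKM. Diabetic samples 1 to 4 had 93.4, 78.4, 48.1 and 62.0 FPKM. Every diabetic sample lay below every control sample, with diabetic 1 nearest to control 1 and diabetic 3 the lowest. The means were 142 ± 29.1 FPKM for control and 70.5 ± 19.7 FPKM for diabetic samples, a log2 fold change of -1.02 (SE 0.20, limma adjusted p = 0.022). The values rest on 441 to 1712 reads per library. The call ended without control 3 (adjusted p = 0.060) and without diabetic 4 (adjusted p = 0.073), with fold changes of -0.98 and -0.97, and it held in the other 7 leave-one-out fits. It also ended when every gene with a read was tested (adjusted p = 0.060).

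No other row of the table overlaps Uqcr11. Its coding neighbours on the same strand, Mbd3 (4570 bases away) and Tcf3 (2683 bases away), had log2 fold changes of -0.10 (SE 0.12, limma adjusted p = 0.67) and 0.41 (SE 0.20, adjusted p = 0.24). Diabetic 3, which had the lowest Uqcr11, also had the lowest T cell marker sum of the diabetic samples (209 FPKM) and the highest macrophage marker sum of all samples (2296 FPKM). The part of cell makeup in the Uqcr11 difference was not tested.

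The ratio of Uqcr11 to the mean of the other 7 Uqcr genes of complex III does not depend on how samples were scaled to each other. It was 1.32, 1.67, 1.71, 1.52 and 1.47 in control 1 to 5. In diabetic 1 to 4 it was 1.04, 0.741, 0.582 and 0.729. Uqcr11 thus stood above the mean of its partners in every control sample and in diabetic 1, and below it in the other 3 diabetic samples. The group means of the ratio were 1.54 ± 0.160 and 0.773 ± 0.192, given without a test because the gene was singled out after its values were known.

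**Figure D3:**
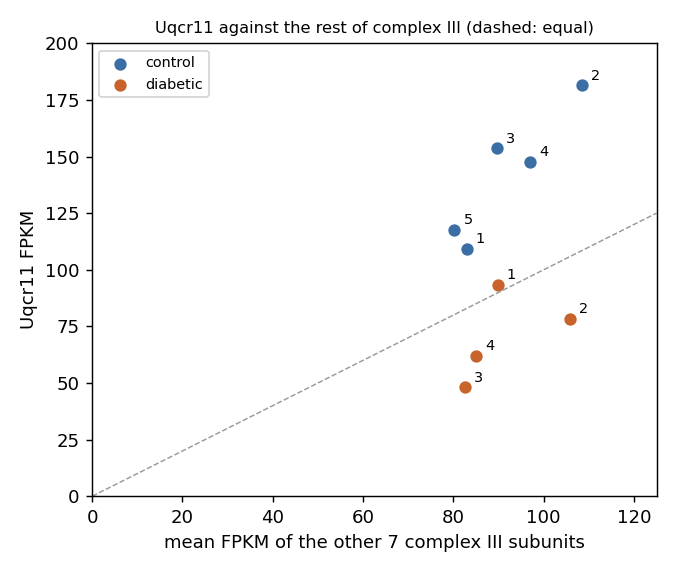
Uqcr11 FPKM (vertical axis) against the mean FPKM of the other 7 Uqcr genes of complex III (horizontal axis). Each sample is 1 point with its replicate number, and the dashed line marks equality. The partners span 80.2 to 108 FPKM in control and 82.5 to 106 in diabetic samples, while Uqcr11 separates the groups.

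The other complex III subunits were spread on both sides of 0. Uqcrq, a small subunit also called ubiquinone-binding protein QP-C, had 58.2, 76.1, 68.2, 62.1 and 52.5 FPKM in control 1 to 5 and 52.1, 51.3, 40.0 and 40.6 FPKM in diabetic 1 to 4. Its groups did not overlap, by a margin of less than 1 FPKM between control 5 and diabetic 1 (log2 fold change -0.45, SE 0.13, limma adjusted p = 0.079). Uqcrfs1, the Rieske iron-sulfur protein that takes electrons from ubiquinol, averaged 66.4 ± 9.95 FPKM across controls and 76.2 ± 7.57 FPKM across diabetic libraries (log2 fold change 0.20, limma adjusted p = 0.37). The hinge protein gene Uqcrh had 198 ± 29.9 and 229 ± 40.2 FPKM (log2 fold change 0.21, limma adjusted p = 0.44). The scaffold subunits Uqcrc1 and Uqcrc2 had log2 fold changes of -0.030 and 0.14 (limma adjusted p = 0.89 and 0.54). Uqcr10, the partner of cytochrome c1, and Uqcrb had log2 fold changes of -0.23 and -0.23 (limma adjusted p = 0.38 and 0.56). The sign of Uqcrc1 turned positive with array weights, plain totals and quantile normalization. Of the 8 Uqcr subunits, 1 passed, 5 had negative fold changes (62.5%, against 52.3% of all tested genes) and 3 positive ones.

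Promoters of respiratory genes are known for sites of NRF1, a regulator of nuclear genes for mitochondria, and of YY1 and ETS family factors such as GABP. RefSeq promoter sequences (GRCm38.p6; 250 bases before to 50 after the start) were matched for 75 of 91 members, 72 by symbol and 3 by synonym. Among those not matched were Ndufa2, Ndufs1, Sdhc, Uqcrb, Uqcrc2, Uqcrq, Cox4i1 and Atp5a1. Both strands were searched, and an ETS match can run into a YY1 match, since the last letters of CCGGAAG are the first of AAGATGGCG. The NRF1 motif was found in 19 (25.3%), against 5.19% of all 27025 genes with a promoter and 12.4% of those tested here. The YY1 motif AAGATGGCG was found in 8 (10.7%), against 1.64% and 4.11%, and Ndufs6 held both. The ETS motif CCGGAAG was found in 17 (22.7%), against 9.93% and 21.8%, and TATAAA, the TATA box, in 6 (8.0%), against 15.7% and 8.31%.

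The upstream 250 bases of 4 members show what these matches look like beside the RNA values. Uqcr11 is shown as the member that fell, Uqcrh as the most abundant complex III subunit, and Sdha and Cox6a1 as holders of several NRF1 matches. All 4 are on the minus strand and are written 5′ to 3′ along the gene, with NRF1 and ETS matches on either strand in capitals. They cover chr10:80406822-80407071, chr4:116075071-116075320, chr13:74350241-74350490 and chr5:115348959-115349208 of GRCm38.p6.
Uqcr11: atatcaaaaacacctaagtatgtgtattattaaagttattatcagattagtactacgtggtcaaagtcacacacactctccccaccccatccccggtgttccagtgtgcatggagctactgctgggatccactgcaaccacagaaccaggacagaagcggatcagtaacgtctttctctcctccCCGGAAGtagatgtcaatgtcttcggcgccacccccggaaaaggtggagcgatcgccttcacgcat
Uqcrh: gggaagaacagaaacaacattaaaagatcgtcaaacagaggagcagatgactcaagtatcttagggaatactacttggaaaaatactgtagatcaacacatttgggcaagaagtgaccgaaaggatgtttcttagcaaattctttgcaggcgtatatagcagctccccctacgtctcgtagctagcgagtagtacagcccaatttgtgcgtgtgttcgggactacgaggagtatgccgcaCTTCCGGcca
Sdha: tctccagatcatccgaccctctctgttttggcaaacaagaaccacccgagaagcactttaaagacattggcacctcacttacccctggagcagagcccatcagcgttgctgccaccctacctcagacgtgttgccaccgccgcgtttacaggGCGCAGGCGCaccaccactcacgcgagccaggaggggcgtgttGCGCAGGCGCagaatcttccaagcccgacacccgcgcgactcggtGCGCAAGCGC
Cox6a1: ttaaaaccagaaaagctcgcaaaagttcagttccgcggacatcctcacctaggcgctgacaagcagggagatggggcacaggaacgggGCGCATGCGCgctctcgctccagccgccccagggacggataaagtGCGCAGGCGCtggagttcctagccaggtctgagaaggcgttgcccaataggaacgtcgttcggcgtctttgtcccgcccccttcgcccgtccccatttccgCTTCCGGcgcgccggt
Uqcr11 and Uqcrh each hold 1 ETS match and 0 NRF1 matches in this window. Sdha holds 3 NRF1 matches and Cox6a1 holds 2 with 1 ETS match. A match is a description of letters and not evidence of a bound site.

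Complex IV had the largest differences on both sides among members that did not pass. Of 14 tested members 10 had negative log2 fold changes (71.4%, against 52.3% of all tested genes), with a median of -0.16, and 0 passed. At an unadjusted limma p below 0.05, 3 were lower (21.4%, against 11.3% of all tested genes) and 0 higher (against 11.1%). Cox5b, a matrix-facing zinc-binding subunit, had 69.2, 107, 81.3, 77.1 and 76.9 FPKM in control 1 to 5 and 67.5, 65.7, 45.7 and 56.8 FPKM in diabetic 1 to 4. The groups touched without overlapping (log2 fold change -0.48, SE 0.15, limma adjusted p = 0.099). Cox8a, a small membrane subunit, had 275, 429, 337, 345 and 278 FPKM against 250, 265, 215 and 243 FPKM. All of its diabetic values again lay below the control values (log2 fold change -0.43, SE 0.14, limma adjusted p = 0.11).

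Cox7c moved the other way within complex IV. It had 33.5, 19.3, 17.2, 44.7 and 40.0 FPKM in control 1 to 5, and 40.9, 49.4, 42.3 and 43.2 FPKM in diabetic 1 to 4. Control 2 and control 3 were the low samples, and the 4 diabetic samples overlapped the other controls (log2 fold change 0.58, SE 0.26, limma adjusted p = 0.22). Cox7a2l, which joins complexes III and IV into supercomplexes, had 178, 308, 235, 270 and 178 FPKM in control 1 to 5 and 279, 361, 260.0 and 280.3 FPKM in diabetic 1 to 4, with overlapping groups (log2 fold change 0.36, limma adjusted p = 0.27). Its relative Cox7a2 had 142 ± 24.7 and 156 ± 16.3 FPKM (log2 fold change 0.14, limma adjusted p = 0.60).

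The 3 most abundant subunits of complex IV had log2 fold changes between -0.21 and -0.072. Cox4i1 averaged 451 ± 55.9 FPKM across controls and 428 ± 41.5 FPKM across diabetic libraries (log2 fold change -0.072, SE 0.12, limma adjusted p = 0.77), a direction that turned positive with array weights. Cox5a, a matrix-facing subunit, had 140 ± 23.2 and 115 ± 9.56 FPKM (log2 fold change -0.28, limma adjusted p = 0.24). Cox6a1 and Cox6b1 had log2 fold changes of -0.21 and -0.11 (limma adjusted p = 0.37 and 0.71). Cox7b had -0.083 (limma adjusted p = 0.69), which turned positive with array weights and without control 2 and diabetic 3. The tissue isoforms had larger fold changes on few reads: Cox7a1 -0.60 (SE 0.28; 18 to 62 reads per library), Cox6b2 -0.43 (SE 0.17; 18 to 48 reads) and Cox6a2 -0.43 (SE 0.22; 10 to 38 reads), with limma adjusted p from 0.17 to 0.27.

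**Figure D4:**
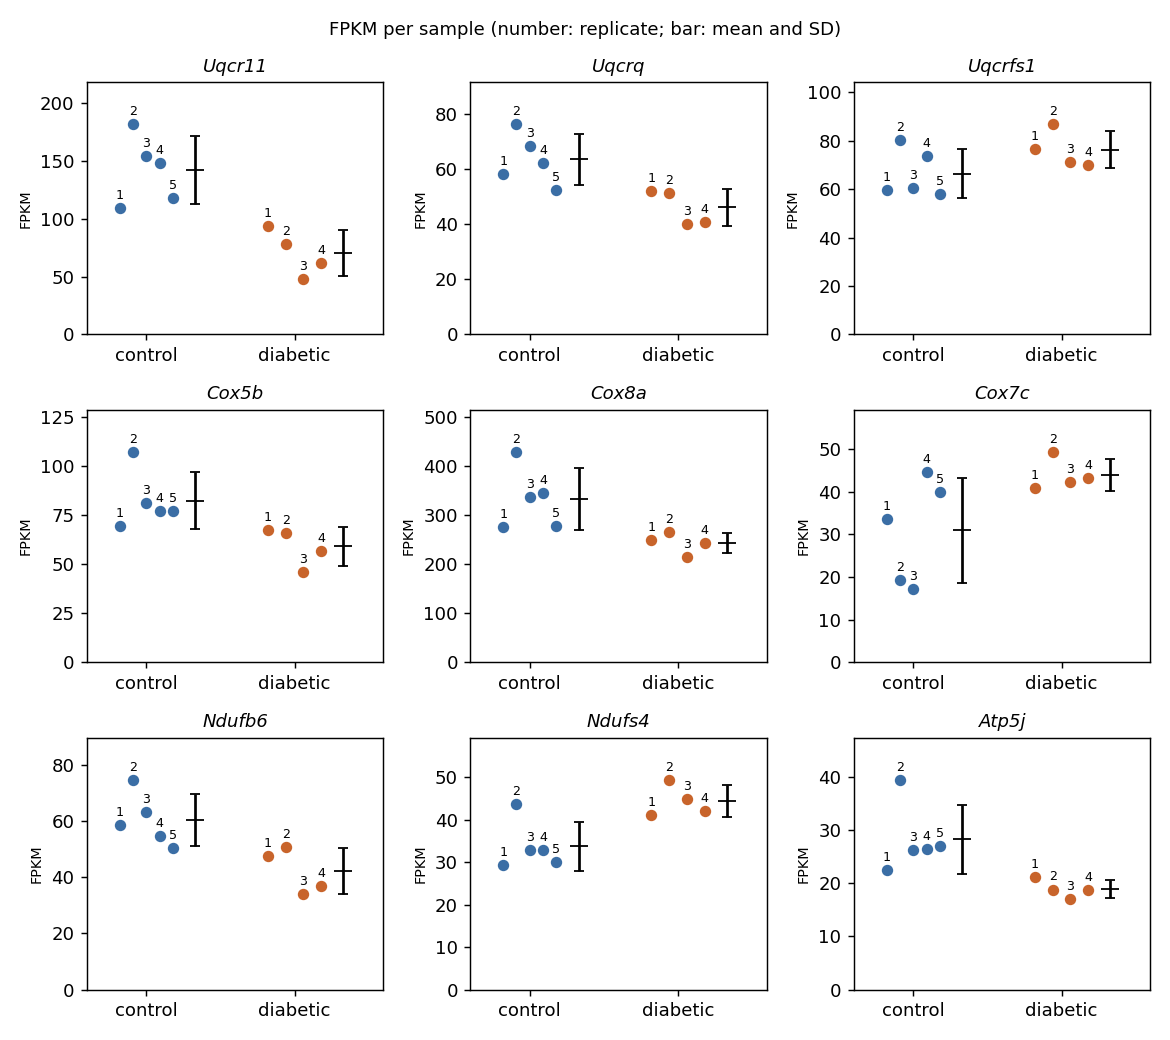
FPKM per sample (vertical axis from 0) for 9 members in control and diabetic samples, numbered by replicate, with mean and SD bars. Uqcr11, Uqcrq, Cox5b, Cox8a and Atp5j show groups that do not overlap, while Cox7c is split within the control samples.

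Complex I held fold changes of both signs, in shares near those of all tested genes. Of 44 tested members 25 had negative (56.8%, against 52.3% of all tested genes) and 19 positive log2 fold changes. The median was -0.042 and 0 passed. At an unadjusted limma p below 0.05, 8 were lower (18.2%, against 11.3% of all tested genes) and 6 higher (13.6%, against 11.1%). Ndufb6, an accessory subunit of the membrane arm, had 58.5, 74.7, 63.1, 54.6 and 50.5 FPKM in control 1 to 5 and 47.6, 50.9, 33.9 and 36.9 FPKM in diabetic 1 to 4. Diabetic 2 lay just above control 5, and diabetic 3 and 4 were the low samples (log2 fold change -0.51, SE 0.15, limma adjusted p = 0.082). Ndufs6, an accessory subunit of the NADH-oxidising arm that carries zinc, averaged 106 ± 18.8 FPKM across controls and 76.3 ± 10.6 FPKM across diabetic libraries (log2 fold change -0.46, SE 0.15, limma adjusted p = 0.10).

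Ndufs4, another accessory subunit of the same arm whose loss in mice causes a Leigh-like encephalopathy, pointed upwards. Control 1 to 5 had 29.3, 43.6, 32.8, 32.9 and 30.0 FPKM, and diabetic 1 to 4 had 41.1, 49.4, 45.0 and 42.0 FPKM. Control 2 was the sole control sample within the diabetic range (log2 fold change 0.40, SE 0.12, limma adjusted p = 0.095). Without control 2 the gene passed (limma adjusted p = 0.030), as it did with array weights, TPM, plain totals, quantile normalization and without both control 2 and diabetic 3 (adjusted p from 0.020 to 0.24 over all alternatives).

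The core subunits of complex I, which carry the flavin and iron-sulfur clusters, lay on both sides of 0. Of 7 tested, 4 had negative fold changes, the median was -0.018 and 0 passed. At an unadjusted limma p below 0.05, 1 was lower and 1 higher, where 11.3% and 11.1% of all tested genes were. Ndufs1 averaged 6.67 ± 0.583 FPKM across controls and 6.77 ± 0.394 FPKM across diabetic libraries (log2 fold change 0.021, limma adjusted p = 0.91). Ndufv1, which binds NADH, had a log2 fold change of -0.21 (limma adjusted p = 0.38). Ndufv2, an iron-sulfur subunit beside it, averaged 111 ± 19.4 FPKM across controls and 140.2 ± 17.6 FPKM across diabetic libraries (log2 fold change 0.34, limma adjusted p = 0.20). Ndufs7, which holds the last iron-sulfur cluster before ubiquinone, averaged 56.7 ± 6.94 and 47.5 ± 1.15 FPKM (log2 fold change -0.24, limma adjusted p = 0.21). The accessory subunits had a median of -0.094 over 30 tested genes. The highest of them, Ndufa2, had 235 ± 37.0 and 178 ± 29.0 FPKM (log2 fold change -0.40, limma adjusted p = 0.15), while Ndufa4 had 101 ± 25.4 and 106 ± 13.6 FPKM (log2 fold change 0.090, limma adjusted p = 0.79). Of the 7 assembly factors, 5 had positive fold changes, the median was 0.15 and 0 passed. At an unadjusted limma p below 0.05, 2 were higher and 0 lower, where 11.1% and 11.3% of all tested genes were.

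Complex II, which links the respiratory chain to the tricarboxylic acid cycle, showed no difference beyond the spread between samples. Its 4 subunits all had negative log2 fold changes, from -0.16 to -0.077, and limma adjusted p from 0.55 to 0.75, with 0 below an unadjusted p of 0.05. Sdha, the flavoprotein that oxidises succinate, had 64.9, 84.7, 67.8, 64.4 and 60.7 FPKM in control 1 to 5 and 60.5, 64.3, 62.9 and 62.5 FPKM in diabetic 1 to 4. Control 2 stood above all other samples, and the remaining 4 control values enclosed most diabetic ones. Sdhb, the iron-sulfur subunit, averaged 68.5 ± 13.2 FPKM across controls and 62.2 ± 7.78 FPKM across diabetic libraries (log2 fold change -0.12, SE 0.15).

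Of 17 tested members of complex V 12 had negative log2 fold changes (70.6%, against 52.3% of all tested genes), with a median of -0.075, and 0 passed. At an unadjusted limma p below 0.05, 4 were lower (23.5%, against 11.3% of all tested genes) and 1 higher (5.88%, against 11.1%). The higher one was Atp5sl, which is not a subunit of the enzyme. The catalytic subunits Atp5a1 (alpha) and Atp5b (beta) had log2 fold changes of -0.028 and -0.075 (limma adjusted p = 0.91 and 0.70). The sign of Atp5a1 turned positive with array weights, plain totals and quantile normalization, and that of Atp5b without both control 2 and diabetic 3. Atp5j, coupling factor 6 of the peripheral stalk, had 22.5, 39.4, 26.1, 26.3 and 26.9 FPKM in control 1 to 5 and 21.2, 18.8, 16.9 and 18.7 FPKM in diabetic 1 to 4. All diabetic values lay below all control values, with control 2 far above the rest (log2 fold change -0.54, SE 0.15, limma adjusted p = 0.062). The row of Atp5j overlaps another row of the table, on the opposite strand, Gabpa, and no source used here gives the strand setting of the counting.

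The 3 genes of the proton-carrying c-ring encode the same mature protein with different import signals, and all had negative fold changes. Atp5g1 had 20.7, 28.7, 24.9, 23.9 and 20.1 FPKM in control 1 to 5 and 19.2, 19.3, 15.4 and 18.1 FPKM in diabetic 1 to 4. Its groups did not overlap, with less than 1 FPKM between control 5 and diabetic 2 (log2 fold change -0.37, SE 0.12, limma adjusted p = 0.10). The median over the 3 genes was -0.22. Atp5l had 356 ± 63.3 and 323 ± 39.3 FPKM (log2 fold change -0.13, limma adjusted p = 0.65).

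The remaining Atp5 names belong to genes outside the enzyme itself. Atp5sl, now named Dmac2 and known for the assembly of the distal membrane arm of complex I, had 8.38, 9.22, 9.09, 8.07 and 8.49 FPKM in control 1 to 5 and 12.1, 12.4, 9.42 and 12.6 FPKM in diabetic 1 to 4. Every diabetic sample lay above every control sample, with diabetic 3 close to control 2 (log2 fold change 0.38, SE 0.10, limma adjusted p = 0.059). Without diabetic 3 the gene passed (limma adjusted p = 0.0096), and over all alternatives the adjusted p ran from 0.0093 to 0.18. Atp5s, coupling factor B, was low at 1.82 ± 0.278 and 2.11 ± 0.346 FPKM (log2 fold change 0.14, limma adjusted p = 0.53; 35 to 54 reads per library).

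Single samples moved the complexes as a whole. Control 2 was the highest of the 5 control samples for 67 of 87 members (77.0%, against 34.1% of all tested genes) and the highest of all 9 for 57 (65.5%, against 22.1%). Among diabetic samples, diabetic 2 was the highest for 60 members (69.0%, against 25.4%). Diabetic 3 was the lowest of all 9 samples for 29 members (33.3%, against 12.1%) and of the 4 diabetic ones for 37 (42.5%, against 30.4%). Relative to the control mean of the 87 members, the mean log2(FPKM + 1) was 0.24 in control 2 and -0.15 to 0.090 in the other controls, and it was -0.065, 0.052, -0.14 and -0.17 in diabetic 1 to 4. The group ranges overlapped in all 5 complexes, though diabetic 3 (-0.36) and diabetic 4 (-0.26) lay below all controls in complex III, as did diabetic 4 in complex II (-0.25) and complex IV (-0.29), and diabetic 3 in complex V (-0.20).

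**Figure D5:**
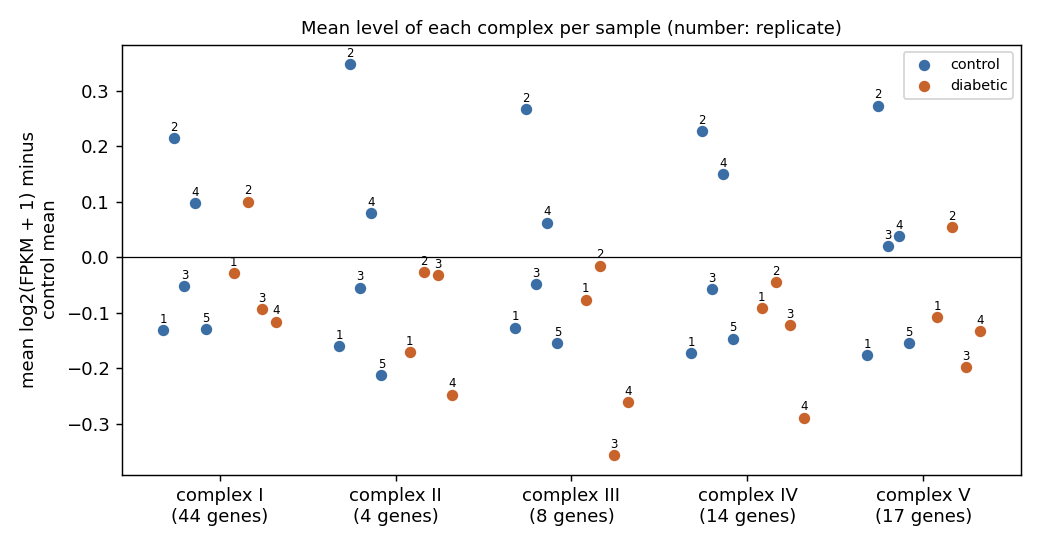
Mean log2(FPKM + 1) of each complex per sample, relative to the control mean (vertical axis), with replicate numbers. Control 2 is the highest sample in every complex, and diabetic samples overlap controls in each.

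Control 2 also held the most reads in genes (16169060), at a size factor of 0.99. With plain totals in place of the deposited scaling, the median fold change of the members was -0.039 and 50 were negative, while the median over all tested genes moved from -0.013 to 0.019. Without control 2 the median was -0.016 and 49 were negative. Without both control 2 and diabetic 3 it was 0.0025 with 43 negative, and Uqcr11 kept its call (log2 fold change -0.76, adjusted p = 0.023).

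Level and gene length are given for the members on either side. The 17 that were lower at an unadjusted p below 0.05 were Uqcr11, Atp5j, Uqcrq, Ndufb6, Cox5b, Atp5g1, Ndufs6, Cox8a, Ndufa13, Ndufa2, Atp5e, Cox6b2, Atp5h, Ndufa8, Ndufa1, Ndufs7 and Ndufa3. Of these, 7 are accessory subunits and 1 (Ndufs7) a core subunit of complex I. Their median level was 92.7 FPKM (1.93 to 293) and their median gene length 1108 bases (419 to 4265). The 7 higher ones were Atp5sl, Ndufs4, Ndufaf1, Ndufab1, Ndufa10, Ndufv2 and Ndufaf6. They include 2 Ndufaf assembly factors beside Atp5sl, which is also known for complex I assembly. Their median level was 12.9 FPKM (3.46 to 124) and their median length 1534 bases (1018 to 3331), ranges that overlap those of the 17, beside 65.9 FPKM and 1497 bases for the 63 other tested members. By coding transcripts in GENCODE, the median length was 569.5 bases for the 17 and 704 for the 63 others. For the 6 higher members found there it was 1033 bases. These sets were formed from the measured values and are given without a test.

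Other mitochondrial genes were read from lists chosen by role. Of 40 tested assembly factors and carriers outside the naming rule, 1 fell and 0 rose, where 2.08% and 2.68% of all tested genes did. At an unadjusted limma p below 0.05, 6 were lower and 3 higher, where 11.3% and 11.1% of all tested genes were. The list also holds the subunit genes Cyc1 (log2 fold change -0.033, limma adjusted p = 0.90) and Usmg5 (0.18, adjusted p = 0.49). Cox14, an early assembly factor of complex IV, had 145, 166, 153, 155 and 141 FPKM in control 1 to 5 and 111, 116, 107 and 104 FPKM in diabetic 1 to 4. The groups stood well apart (log2 fold change -0.47, SE 0.092, limma adjusted p = 0.022), and the call survived 6 of 9 leave-one-out fits. The list's median was -0.0046, with 20 negative.

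Mitochondrial ribosomal proteins, which make the mitochondrially encoded subunits, included 2 rises and 0 falls among 74 tested, where 2.68% of all tested genes rose and 2.08% fell. At an unadjusted p below 0.05, 11 were higher and 7 lower, where 11.1% and 11.3% of all tested genes were. Mrpl45 of the large subunit ran from 11.1 to 14.5 FPKM in control and from 17.4 to 21.4 FPKM in diabetic samples, without overlap (log2 fold change 0.50, SE 0.10, limma adjusted p = 0.023). Mrps30 had 14.0 ± 1.43 and 19.8 ± 1.48 FPKM (log2 fold change 0.47, SE 0.099, limma adjusted p = 0.025). They passed in 6 and 4 of 9 leave-one-out fits. The list's median was 0.066, against -0.013 over all tested genes, with 26 of 74 negative, where 52.3% of all tested genes were.

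The other lists held no passing gene. Of all tested genes 52.3% were negative, and at an unadjusted p below 0.05, 11.3% were lower and 11.1% higher. Of 23 tested genes of the tricarboxylic acid cycle and pyruvate dehydrogenase, 11 were negative (median 0.0016), and 0 passed in limma, with 1 lower and 0 higher at an unadjusted p below 0.05. Pdp1 and Fh1 had log2 fold changes of -0.26 and 0.24 (limma adjusted p = 0.21 and 0.28). Of 16 tested genes of mitochondrial biogenesis and genome maintenance, 4 were negative (median 0.10), and 0 passed in limma, with 3 higher at an unadjusted p below 0.05. Tfam, which packages and transcribes mitochondrial DNA, had 7.02 ± 0.402 and 9.23 ± 1.52 FPKM (log2 fold change 0.34, limma adjusted p = 0.11), and Polg2 had a log2 fold change of 0.33 (limma adjusted p = 0.14). Of 28 tested import and inner membrane genes, 15 were negative (median -0.0077), and 0 passed in limma, with 2 lower at an unadjusted p below 0.05, Timm13 (-0.56, adjusted p = 0.054) and Tomm7 (-0.53, adjusted p = 0.082).

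Cell type markers varied beside these values. Summed FPKM of the lists in control against diabetic samples was 1613 to 2263 against 1283 to 2296 for macrophages, 1030 to 2168 against 1578 to 3358 for B cells, 280 to 699 against 109 to 372 for mast cells and 91.7 to 1073 against 102 to 507 for neutrophils. Large peritoneal macrophage sums were 207 to 294 against 210 to 299 FPKM, monocyte sums 240 to 359 against 207 to 333, eosinophil sums 12.7 to 46.9 against 5.44 to 13.5 and dendritic cell sums 55.7 to 68.0 against 88.5 to 193. Control 2, the highest sample for most respiratory genes, had the highest macrophage sum of the controls (2263 FPKM) and the lowest B cell (1030) and T cell (120) sums. Among tested markers, 1 of 6 for macrophages fell and 0 rose, 2 of 8 for B cells rose, 1 of 6 for large peritoneal macrophages fell (2 higher and 1 lower at an unadjusted p below 0.05, median log2 fold change 0.40), 1 of 4 for monocytes rose, and 1 rose and 1 fell of 3 for dendritic cells. In limma 0 of 5 passed for neutrophils (0 at an unadjusted p below 0.05), 0 of 5 for mast cells (3 lower) and 0 of 2 for eosinophils (2 lower). The part of cell makeup in the respiratory gene values was not tested.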

How the data were processed

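RNA of peritoneal exudate cells went through a SMARTER mRNA-seq kit, per the labels' protocols. The authors deposited 1 table of FPKM for 41096 genes in 9 samples, with gene length, name, position and biotype, per the file headers. No source used here gives the aligner or the counter. Titles identified all 9 sample columns. FPKM times length gave whole reads within 0.05 for 100% of nonzero values (14156421 to 16169060 reads in genes per sample), and the implied divisors were the geometric mean total multiplied by median-of-ratios size factors, so the deposited values are already scaled between samples. GRCm38 and mm10 appear in the submitters' processing notes. Of 90 members found in the GENCODE annotation of GRCm38, 90 shared the chromosome but 0 the start. The members' gene identifiers start with MGP_C57BL6NJ, which names a mouse strain, so table positions are copied as given and are not GRCm38 positions.

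The 11193 genes that reached 1 FPKM in 4 or more samples entered limma 3.58.1 (R 4.3.3), as log2(FPKM + 1) (lmFit, eBayes with trend and robust moderation), group as the only factor, two-sided, with Benjamini-Hochberg adjusted p below 0.05 over the whole table. Lists are described by counts and medians with no list test. The members and lists were chosen with earlier results of these data known. Genes described in full were passing members, the 3 smallest p per complex, the 3 largest fold changes each way, core subunits, isoforms, and the highest and lowest level per complex; from other lists, up to 4 passing genes or else the 2 smallest p. Ndufb7, Ndufaf3, Ndufaf4 and the marker genes, the neighbours of Uqcr11 and the members listed by unadjusted p were chosen after their values were seen. Alternatives were pseudocounts of 0.1 and 5, other filters, scalings and limma settings, voom on recovered reads, each sample left out, the replicate number as a factor and, chosen after seeing the data, control 2 and diabetic 3 left out together. Subunit genes with processed pseudogenes are uncertain, because the counting may split their reads, and 32 members overlap another row. The values of 1 member are not reported here, though it stays in counts and medians.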

Additional observations from a re-analysis of the deposited data

Results flagged for a closer look

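Among 104 groups of values of named genes and complex means checked for a sample far from the others, 4 stood out, about 1 in 20 being what chance gives. Control 2 was high for Ndufs4, at 43.6 FPKM with the other controls at 29.3 to 32.9, and for Atp5j, at 39.4 FPKM with the others at 22.5 to 26.9. Diabetic 3 was low for Atp5b, at 166 FPKM with the other diabetic samples at 183 to 185, and for Atp5sl, at 9.42 FPKM with the others at 12.1 to 12.6.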

How the results depend on the processing

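Uqcr11 stayed lower under all 21 alternatives (log2 fold change -1.17 to -0.74, adjusted p = 0.013 to 0.088) and passed in 17. It did not pass with no filter, with the replicate block, without control 3 or without diabetic 4. The number of members changed, 1 as reported, was 7 with TPM, 3 with array weights, 3 with quantile normalization, 3 without control 2 and diabetic 3, 2 with voom, 2 with plain totals, 0 with no filter and 0 to 2 when 1 sample was left out. The number of all genes changed, 533 as reported, was 1304 with array weights, 183 with no filter and 1180 without control 2 and diabetic 3. It was 146 to 1170 when 1 sample was left out, and with TPM 255 genes rose and 303 fell. With quantile normalization 345 of 11193 tested genes rose and 293 fell, and with voom 358 rose and 302 fell. With plain totals 327 of 11208 tested genes rose and 203 fell. Labels share replicate numbers without saying that they pair samples, and the correlations of same-numbered samples (0.023, 0.16, -0.26 and -0.18) do not pair them. The replicate block gave 62 changed genes and 0 changed members. The median of the biogenesis list, 0.10 as reported, was 0.035 with an FPKM of at least 5 and 0.057 with a pseudocount of 5. Of 46 named genes, 40 kept their sign throughout. With array weights the sign turned for Uqcrc1 (0.034), Cox4i1 (0.0031), Cox7b (8.7e-05) and Atp5a1 (0.046). With quantile normalization it turned for Uqcrc1 (0.022) and Atp5a1 (0.047), and with plain totals for Uqcrc1 (0.0071) and Atp5a1 (0.010). Without control 2 and diabetic 3 it turned for Uqcrc1 (0.031), Cox7b (0.013), Atp5a1 (0.080) and Atp5b (0.0083). Leaving out 1 sample gave -0.086 to 0.050 for Atp5a1, -0.022 to 0.051 for Ndufs1 and -0.083 to 0.026 for Uqcrc1. The cause was not tested. Depth limits Cox6a2, Cox6b2 and Cox7a1, which rest on 10 to 62 reads per library.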
